A study of Mus musculus with 6 samples.

Results

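Toll-like receptor genes were read across infarcted mouse heart of 2 groups of mice, wild type and labelled Itih5 knockdown. The 10 genes are 8 receptors (Tlr1, Tlr2, Tlr3, Tlr4, Tlr7, Tlr8, Tlr9 and Tlr13), the co-receptor gene Cd14 and the adaptor gene Myd88. They were chosen by symbol, and all 10 were present among the 16199 gene symbols of the table. Both groups had the left anterior descending branch of the coronary artery tied off and are from 7 days after infarction, so there is no uninjured heart to compare with. One group is 3 libraries labelled wild type and the other is 3 libraries labelled ITIH5 knockdown. The sources used here do not give strain, sex, age or the method of knockdown. The design text asks whether ITIH5, a secreted protein that binds hyaluronan, acts on scarring through the immune response.

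Toll-like receptors are membrane proteins that bind microbial molecules, and also material released by dying cells, through a leucine-rich outer part. They signal through an inner TIR domain that recruits adaptor proteins. Some sit at the cell surface and bind lipids and proteins, and others sit in endosomes and bind nucleic acids. MyD88 is the adaptor for all of them except TLR3, which uses TRIF, and TLR4 uses both. In the infarcted heart these receptors are carried by macrophages, monocytes and neutrophils as well as by resident cells, and they start the production of cytokines and chemokines.

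The values are close to TPM, a share of the reads corrected for gene length, so levels may be compared between genes. The number of reads behind them is unknown, and no label ties a library to an animal of its own, so every p-value reflects only the spread between libraries, which may be technical. Itih5 itself was not lower in the labelled knockdown libraries, at 18.4, 10.5 and 19.96 against 9.73, 13.1 and 17.2 in wild type (exact two-sided permutation p = 0.5, with 0.1 as the smallest p possible for 3 against 3), so each direction below refers to the labels. Replicate 1 of the labelled knockdown group stood apart: 32.6% of its summed values came from mitochondrially encoded genes, against 10.9% to 20.2% in the other 5 libraries, and its heart muscle marker score was the highest. Low values sat near whole multiples of a step of 0.889 to 1.163, depending on the library: of the values nearest to 1 to 5 steps, 89.3% to 100% per library lay within 0.1 step of a whole number. At 6 to 20 steps that share was only 30.5% in wild-type replicate 3, 62.7% in labelled knockdown replicate 1 and 69.6% in wild-type replicate 2, against 96.5% to 100% in the other 3. Labelled knockdown replicate 1 also had 1077 values above 0 and under 0.2, where the other 5 libraries had 0. A gene with a value of 5 rests on about 5 steps.

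Of the 10 genes, 9 had a lower mean in the labelled knockdown libraries, against 49.2% of all 14025 genes tested, and the median log2 difference of the 10 was -0.46 against 0.00 over all genes. The 4 receptor genes Tlr2, Tlr7, Tlr8 and Tlr13 were lower without overlap between the groups, where 9.88% of all genes were. At an unadjusted p under 0.05 there were 5, these 4 and Tlr9, where 6.55% of all genes were lower at that level. After Benjamini-Hochberg adjustment over all genes none of the 10 passed the limma test. That test called 0% of all genes, and the adjusted p of the 10 ran from 0.296 to 0.920. Higher without overlap were 0 of the 10, against 12.6% of all genes, and higher at an unadjusted p under 0.05 were again 0, against 8.29%. These shares are for the values as deposited. With every library rescaled to the same sum, 8 of the 10 were lower without overlap, against 17.1% of all genes, and the median of all genes moved to -0.13. Under that rescaling 1395 of 1852 genes at an unadjusted p under 0.05 were lower, against 919 of 2081 in the deposited values.

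**Figure D1:**
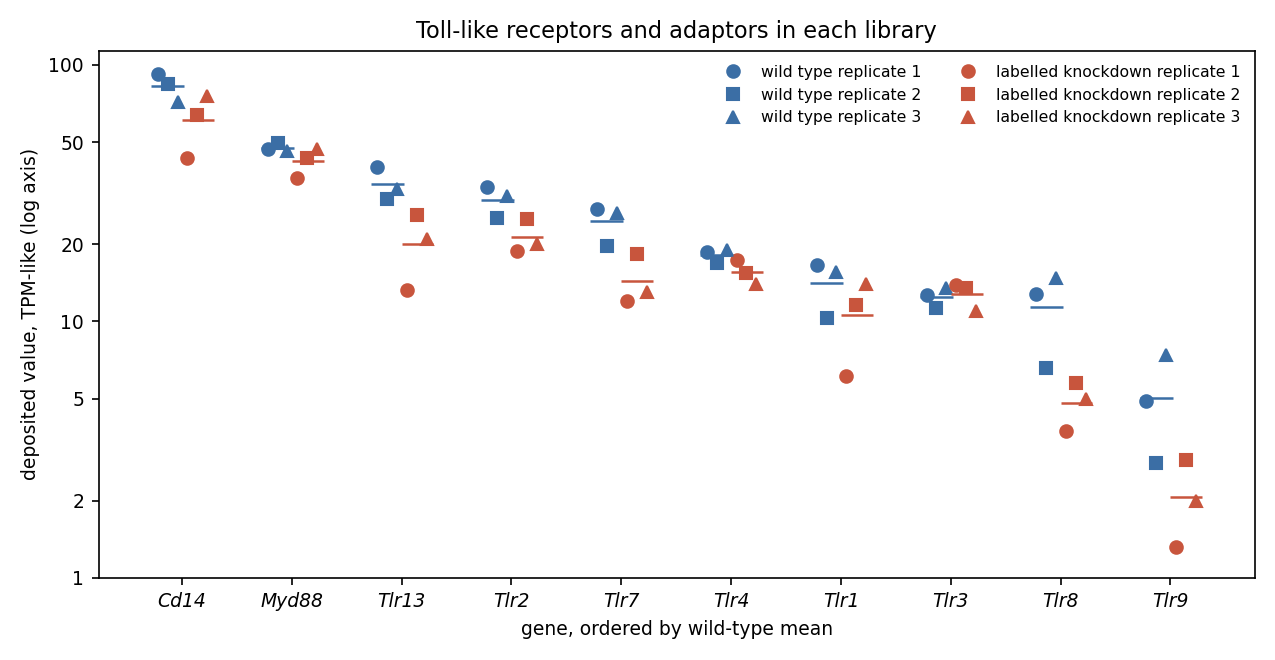
The deposited value of each gene (log axis, TPM-like units) is plotted for the 3 wild-type libraries in blue and the 3 labelled knockdown libraries in red, with 1 marker shape per replicate and a line at each group mean. Cd14 has the highest wild-type mean (82.6) and Tlr9 the lowest (5.03), and the red points lie below all blue points for Tlr13, Tlr2, Tlr7 and Tlr8.

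The order of levels in wild type ran from Cd14 (82.6 ± 10.3, SD, n = 3) and Myd88 (47.6 ± 1.95) through Tlr13 (34.3 ± 5.21), Tlr2 (29.8 ± 4.06), Tlr7 (24.5 ± 4.18), Tlr4 (18.2 ± 1.10), Tlr1 (14.1 ± 3.40), Tlr3 (12.5 ± 1.15) and Tlr8 (11.3 ± 4.27) to Tlr9 (5.03 ± 2.29). The ranges of neighbours in that order overlapped between Tlr13 and Tlr2, Tlr2 and Tlr7, Tlr1 and Tlr3, Tlr3 and Tlr8, and Tlr8 and Tlr9. Tlr13, a receptor for bacterial ribosomal RNA that mice have and humans lack, had the highest mean of the 8 receptors in wild type. In the labelled knockdown libraries the order of the means changed at several places. Tlr2 (21.3 ± 3.29) stood above Tlr13 (20.1 ± 6.41), Tlr4 (15.6 ± 1.73) above Tlr7 (14.4 ± 3.39) and Tlr3 (12.8 ± 1.59) above Tlr1 (10.5 ± 4.03), with overlapping ranges in each of these pairs. Summed over the 8 receptors, the level was 166, 123 and 160 in wild type compared with 86.7, 118 and 99.8 in the labelled knockdown libraries.

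The larger differences were in 4 of the 5 endosomal receptor genes tested, Tlr7, Tlr8, Tlr9 and Tlr13, and not in Tlr3. Tlr7, which encodes a receptor for single-stranded RNA, was at 27.4, 19.7 and 26.4 in wild-type replicates 1, 2 and 3, compared with 11.99, 18.3 and 12.97 in the labelled knockdown libraries. All 3 wild-type values were above all 3 others, but replicate 2 of wild type and replicate 2 of the labelled knockdown lay close together. On the log2 scale the labelled knockdown group differed from wild type by -0.74 (SE 0.19, 95% interval -1.18 to -0.29, limma adjusted p = 0.296). Tlr8 was at 12.8, 6.55 and 14.7 against 3.75, 5.74 and 4.99. Wild-type replicate 2 was again the lowest of its group and stood only about 1 step above labelled knockdown replicate 2. Its log2 difference of -1.03 (SE 0.28, 95% interval -1.70 to -0.36, limma adjusted p = 0.296) was the largest of the 10 at the pseudocount of 1; at 0.1 Tlr9 (-1.21) exceeded Tlr8 (-1.16). Tlr13 was at 40.1, 30.1 and 32.8 against 13.3, 26.03 and 20.95. The groups did not overlap, and labelled knockdown replicate 1 was the lowest library (log2 difference -0.78, SE 0.23, limma adjusted p = 0.296).

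Tlr9, which encodes the receptor for unmethylated CpG DNA, was the least expressed of the 10. It was at 4.91, 2.81 and 7.38 in wild type compared with 1.32, 2.87 and 2.00 in the labelled knockdown libraries. The groups overlapped because wild-type replicate 2 and labelled knockdown replicate 2 each sat at about 3 steps, so rounding limits this gene most (log2 difference -0.94, SE 0.32, limma adjusted p = 0.301). Tlr3, which encodes the receptor for long RNA duplexes and uses TRIF rather than MyD88, was nearly level across the 6 libraries. Its values were 12.7, 11.2 and 13.5 in wild type compared with 13.9, 13.5 and 10.98 in the labelled knockdown libraries. The groups overlapped throughout (log2 difference 0.03, 95% interval -0.27 to 0.32, limma adjusted p = 0.920). The sign of this small difference turned under several alternatives, among them the rescaling to the same sum (-0.10).

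At the cell surface, Tlr2, whose product pairs with TLR1 or TLR6 to bind lipopeptides, was at 33.3, 25.3 and 30.9 in wild type compared with 18.9, 25.04 and 19.96 in the labelled knockdown libraries. The groups did not overlap, by a gap of less than 1 step between replicate 2 of either group (log2 difference -0.47, SE 0.15, limma adjusted p = 0.298). Rescaling each library to the same sum without mitochondrially encoded genes removed that gap and left 3 genes lower without overlap, Tlr7, Tlr8 and Tlr13, against 6.89% of all genes. Tlr1 was at 16.6, 10.3 and 15.5 against 6.10, 11.6 and 13.97. Its groups overlapped, and the low library was labelled knockdown replicate 1 (log2 difference -0.43, SE 0.30; -0.12 without that library). Tlr4, the receptor that responds to lipopolysaccharide together with CD14 and MD-2, was at 18.6, 16.9 and 19.0 against 17.4, 15.4 and 13.97. These groups overlapped through labelled knockdown replicate 1, the library in which most other receptors were lowest (log2 difference -0.21, SE 0.11). Of the receptor genes outside the 10, Tlr6 had a log2 difference of -0.45 with overlap, and Tlr5 lay at 1 to 2 steps in all libraries. Tlr11 had a mean under 1 and was not tested.

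The co-receptor and the adaptor overlapped between the groups. Cd14, a gene on chromosome 18 whose product hands lipopolysaccharide to TLR4, was at 91.9, 84.5 and 71.5 in wild type compared with 43.5, 63.6 and 75.8 in the labelled knockdown libraries. Labelled knockdown replicate 3 exceeded wild-type replicate 3 (log2 difference -0.46, SE 0.21, limma adjusted p = 0.348), and without labelled knockdown replicate 1 the log2 difference was -0.24. Myd88 was at 46.9, 49.8 and 46.1 against 36.2, 43.4 and 46.9. Only labelled knockdown replicate 1 lay far below the others, and the log2 difference was -0.18 (SE 0.11, 95% interval -0.45 to 0.09) with all libraries and -0.075 without it.

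**Figure D2:**
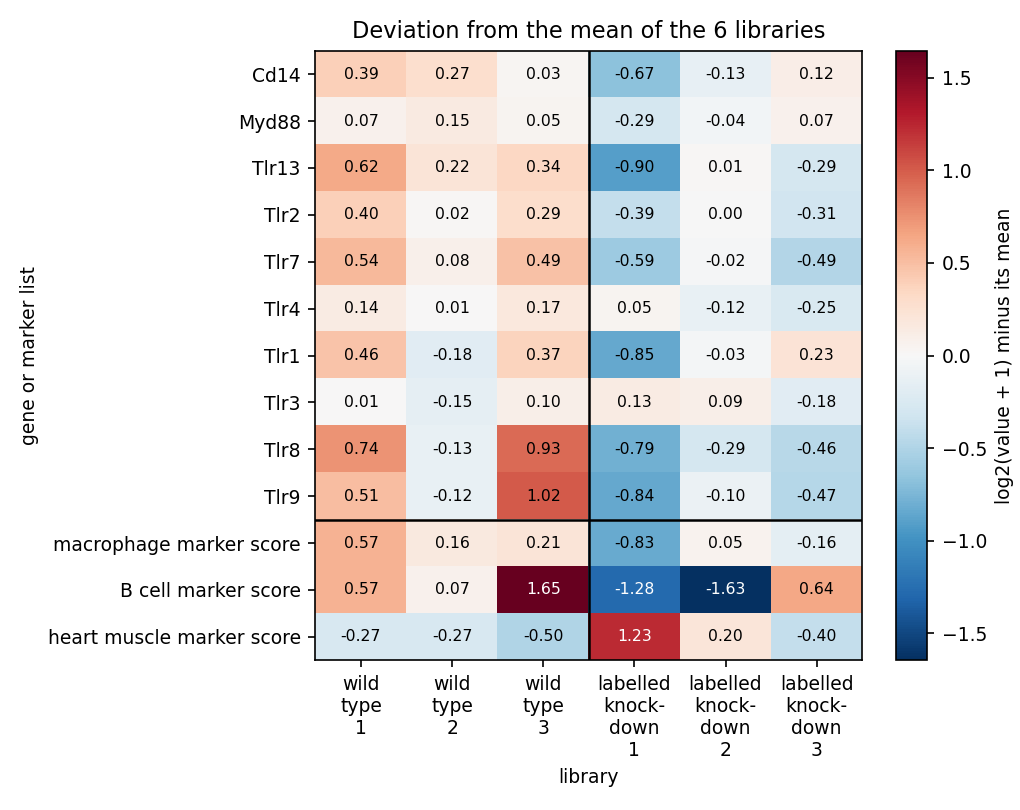
Each cell gives log2(value + 1) of a gene minus its mean over the 6 libraries, with genes in rows and libraries in columns; the 3 lowest rows give the same for marker lists of macrophages, B cells and heart muscle. Labelled knockdown replicate 1 is the lowest library for 8 of the 10 genes, Tlr3 and Tlr4 excepted, and for the macrophage score (-0.83), and the highest for the heart muscle score (1.23).

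Each library was left out in turn. A p-value can also rise because a library is lost, so the counts of fits alone do not show which differences rested on 1 library. Tlr7, Tlr8 and Tlr13 were at an unadjusted p under 0.05 in all 6 of these fits, Tlr2 in 4, Tlr9 in 3, Tlr4 and Cd14 in 1 each, and Tlr1, Tlr3 and Myd88 in 0. The log2 difference ranged from -0.91 to -0.62 for Tlr7, from -1.35 to -0.82 for Tlr8 and from -0.99 to -0.53 for Tlr13. That of Tlr2 stayed between -0.59 and -0.39. Without labelled knockdown replicate 1 the difference was -0.12 for Tlr1 and -0.24 for Cd14, against -0.43 and -0.46 with all libraries. No member passed after adjustment in any of the 6 fits. Lower without overlap were 4, 7 and 5 members without wild-type replicate 1, 2 or 3 (11.8%, 18.4% and 13.4% of all genes) and 5, 5 and 6 without labelled knockdown replicate 1, 2 or 3 (11.9%, 17% and 18.4%). With values divided by each library's step, an alternative chosen after seeing the data, there were 8, against 21.1% of all genes. Of all genes, 2.38%, 6.72% and 2.81% were lower at an unadjusted p under 0.05 without wild-type replicate 1, 2 or 3, and 3.9%, 7.1% and 8.82% without labelled knockdown replicate 1, 2 or 3.

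Markers of macrophages had lower means, as most of the receptor genes did. In labelled knockdown replicate 1, where the macrophage score was lowest (-0.83), Tlr3 and Tlr4 were slightly above their own means (0.13 and 0.05). All 10 macrophage markers had lower means in the labelled knockdown libraries, 6 of them without overlap, where 9.88% of all genes were lower without overlap, and their summed level was 8035 to 10785 in wild type against 3732 to 7530; none was at 0 in any library. In bulk tissue, fewer cells of a type and less RNA per cell cannot be told apart. B cell markers, of a cell type that carries TLR7 and TLR9, had lower means for 5 of 5, with overlap, at summed levels of 53.2 to 167 against 13.9 to 80.8, and none was at 0. Monocyte markers had lower means for 6 of 6, 2 of them without overlap. Their full sums overlapped, at 1968 to 2145 in wild type against 1091, 2103 and 1661 in labelled knockdown replicates 1, 2 and 3. Fn1 alone gave 85.8% to 92.6% of the full sum, and without it the summed levels were 201 to 302 against 80.9 to 190. Neutrophil markers had lower means for 4 of 4 tested (32.4 to 112 against 28.2 to 67.9). Plasmacytoid dendritic cells, another source of TLR7 and TLR9, were hardly detectable, with 3 markers in the table, summed levels of 2.73 to 4.71 against 1.22 to 4.99, and Ccr9 and Klk1 at 0 in some libraries. Other lists had higher means. Conventional dendritic cell markers were higher for 5 of 5 (4 of 5 after rescaling to the same sum), at 26.3 to 36.6 against 40.5 to 45.9. Of these Zbtb46 (0.70), Clec9a (0.85) and Xcr1 (0.48) did not overlap, where 12.6% of all genes were higher without overlap. For each, the closest values of the groups lay less than 1 step apart. Zbtb46 was at 7.96 in wild-type replicate 3 and 8.62 in labelled knockdown replicate 2. Clec9a was at 5.65 and 5.78 in replicate 2 of wild type and of the labelled knockdown. Xcr1 was at 0.972 and 1.18 in replicate 1 of wild type and of the labelled knockdown, each about 1 step. Heart muscle markers had higher means for 6 of 6, at 7066, 7190 and 5720 in wild type against 18974, 10081 and 6080, so the sums overlapped. Endothelial markers had higher means for 5 of 5 with overlap, at 573 to 605 against 504 to 1206. Fibroblast and T cell markers were nearer level, with lower means for 3 of 5 and 4 of 5, all with overlap. Their median log2 differences were -0.14 and -0.07, and after rescaling to the same sum 5 of 5 were lower in each list. Adipocyte and mesothelial markers had lower means for 5 of 5 each, with overlap. Adipocyte markers summed to 482 to 1366 in wild type against 4.77, 11.7 and 1442 in labelled knockdown replicates 1, 2 and 3, and mesothelial markers to 72.1 to 104 against 18.5, 28.6 and 145, so replicates 1 and 2 of that group were low and replicate 3 was the highest of all 6. The part of these lists in the receptor differences was not tested. The fits with a macrophage or heart muscle score, given next, are a description only, since both scores were most extreme in labelled knockdown replicate 1.

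When the macrophage marker score entered the fit as a covariate, the median log2 difference of the 10 genes was -0.18 and none was at an unadjusted p under 0.05, where 0.799% of all genes were lower at that level. The log2 difference was -0.38 (95% interval -0.90 to 0.14) for Tlr7, -0.61 (-1.53 to 0.30) for Tlr8, -0.16 (-0.46 to 0.14) for Tlr13 and -0.20 (-0.62 to 0.21) for Tlr2. It was 0.25 for Tlr1, -0.016 for Cd14 and -0.014 for Myd88. Tlr4 did not move towards 0 (-0.32, 95% interval -0.70 to 0.06). The intervals were wider than without the covariate for all but Tlr1 and Tlr13, and the score itself differs between the groups. With the heart muscle score in its place, Tlr7 (-0.64), Tlr8 (-0.82) and Tlr4 (-0.33) were at an unadjusted p under 0.05, where 2.11% of all genes were lower at that level.

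**Figure D3:**
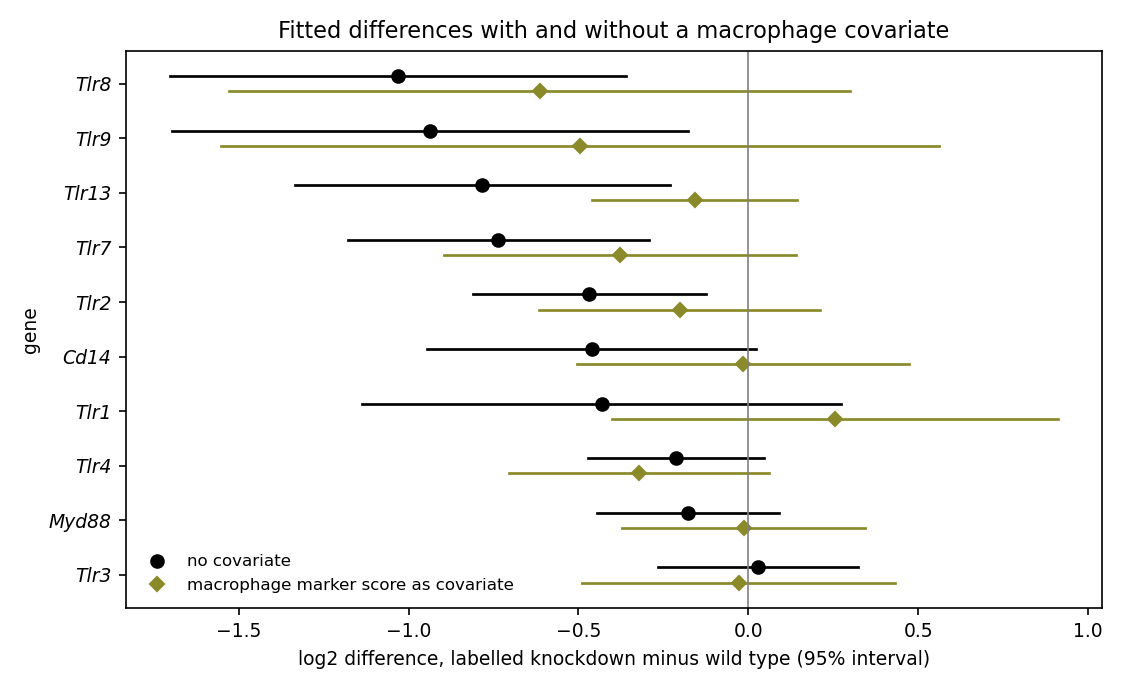
The log2 difference of each gene, labelled knockdown minus wild type, is drawn with its 95% interval in black without a covariate and in olive with the macrophage marker score as a covariate. Without a covariate the intervals of Tlr8, Tlr9, Tlr13, Tlr7 and Tlr2 lie below 0; with it all 10 intervals include 0.

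Ratios within a library do not depend on a factor common to all its genes. The ratio of each gene to Tlr3, a reference chosen after the values were seen, was lower in the labelled knockdown libraries without overlap for 6 of 9 genes, where 6.7% of all genes were. Higher without overlap were 0 of 9, against 5.78%. Tlr3 was the only one of the 10 without a lower mean, so lower ratios of the others follow in part from this choice. These ratios are therefore a description only. Tlr7 was at 2.16, 1.75 and 1.96 times Tlr3 in wild type compared with 0.861, 1.36 and 1.18 times in the labelled knockdown libraries. Tlr13 was at 3.16, 2.67 and 2.42 times Tlr3 against 0.955, 1.93 and 1.91 times. Tlr4 was also lower by this ratio, at 1.46, 1.51 and 1.41 against 1.25, 1.14 and 1.27, whereas Tlr1, Cd14 and Myd88 overlapped.

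The ratio to the geometric mean of the 10 macrophage markers overlapped between the groups for 8 of 10 genes. That geometric mean was itself lower, at 141, 262 and 225 in the labelled knockdown libraries against 375, 283 and 292 in wild type. A lower denominator raises every ratio, so the share of all genes lower by it is small. Tlr13 was lower without overlap, at 0.107, 0.106 and 0.112 in wild type against 0.0944, 0.0994 and 0.0929, where 0.257% of all genes were lower without overlap by this ratio. Tlr3 was higher without overlap (0.0338, 0.0398 and 0.0462 against 0.0988, 0.0515 and 0.0487), as were 51.4% of all genes. Tlr7 overlapped, at 0.0730, 0.0698 and 0.0904 against 0.0851, 0.0699 and 0.0575. The ratio of Tlr8 to its neighbour Tlr7 overlapped as well, at 0.465, 0.332 and 0.557 against 0.313, 0.314 and 0.385.

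**Figure D4:**
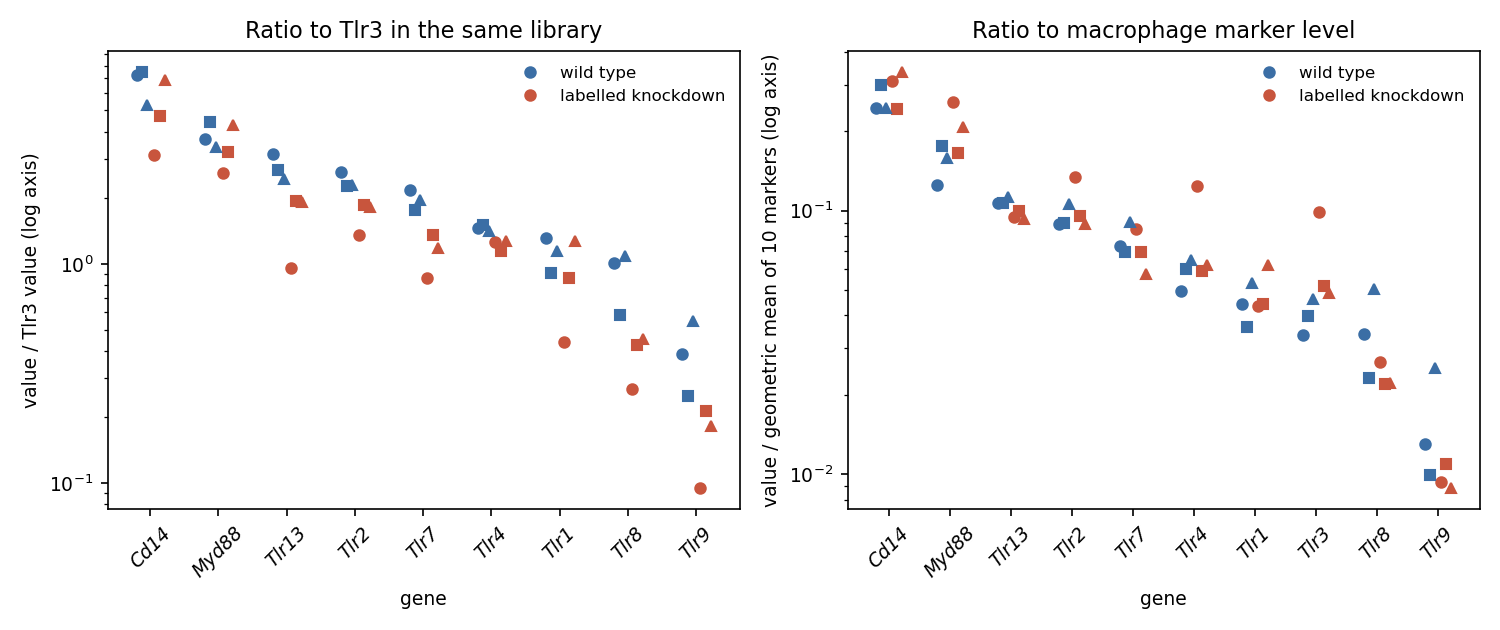
Each point is the ratio of a gene's value to the Tlr3 value (left) or to the geometric mean of 10 macrophage markers (right) in the same library, on log axes, with wild type in blue and labelled knockdown in red and 1 marker shape per replicate. On the left, 6 of 9 genes have all red points below all blue points; on the right, 8 of 10 genes overlap.

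The members are spread over several chromosomes. All coordinates, in mm10, are from the GENCODE M21 annotation, where each gene is protein coding. Tlr8 (minus strand, chromosome X, 167242696 to 167264329) and Tlr7 (minus strand, 167304929 to 167330558) are neighbours with 40599 bases and no annotated gene between them. Tlr13 lies elsewhere on chromosome X (plus strand, 106143204 to 106160493). Tlr1 (minus strand, chromosome 5, 64924679 to 64933563) and the related gene Tlr6 are separated by 18467 bases. Reads shared between these similar sequences could have been split by the counting, which the sources used here do not describe, so Tlr1 and Tlr6 are uncertain. Tlr2 is on chromosome 3 (minus strand, 83836272 to 83841767) and Tlr4 on chromosome 4 (plus strand, 66827584 to 66930284). Tlr9 (plus strand, chromosome 9, 106222598 to 106226883) and Myd88 (minus strand, 119335934 to 119341411) share chromosome 9. Myd88 overlaps Acaa1a on the other strand and Slc22a14 on its own, and Tlr3 (minus strand, chromosome 8, 45395665 to 45411080) overlaps the antisense gene Gm45542, so reads there may not belong to these genes alone.

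Promoters are shown for Tlr8, Tlr13 and Tlr9, the endosomal nucleic acid receptor genes that held the larger differences and had an entry. The sequences are from RefSeq (GRCm38.p6, the assembly of mm10), 250 bases before to 50 after the RefSeq start of the gene, written on the gene's strand. That start can differ from the GENCODE one. For Tlr13 the GENCODE start, 106143204, lies before the RefSeq start and inside the window. Of the 10 members 7 had an entry; Tlr4, Tlr7 and Cd14 did not. Capitals mark matches, on either strand, to a core of PU.1, a transcription factor of myeloid cells (GAGGAA), or to a site of AP-1, a factor that Toll-like receptors activate (TGANTCA). No match to one pattern overlapped a match to the other in these sequences.
Tlr8, chrX:167264280-167264579, minus strand: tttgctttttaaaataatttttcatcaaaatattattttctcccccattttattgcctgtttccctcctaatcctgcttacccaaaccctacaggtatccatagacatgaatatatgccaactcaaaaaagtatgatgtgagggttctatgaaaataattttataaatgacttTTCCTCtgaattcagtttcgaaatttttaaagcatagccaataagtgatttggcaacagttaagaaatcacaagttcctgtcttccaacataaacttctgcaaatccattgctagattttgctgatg
Tlr13, chrX:106143025-106143324, plus strand: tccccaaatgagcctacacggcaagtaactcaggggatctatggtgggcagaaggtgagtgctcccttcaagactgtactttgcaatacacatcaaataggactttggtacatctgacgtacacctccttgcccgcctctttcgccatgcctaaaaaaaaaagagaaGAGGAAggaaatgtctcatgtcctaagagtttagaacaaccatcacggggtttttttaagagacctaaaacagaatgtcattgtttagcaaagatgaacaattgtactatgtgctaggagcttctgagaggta
Tlr9, chr9:106222348-106222647, plus strand: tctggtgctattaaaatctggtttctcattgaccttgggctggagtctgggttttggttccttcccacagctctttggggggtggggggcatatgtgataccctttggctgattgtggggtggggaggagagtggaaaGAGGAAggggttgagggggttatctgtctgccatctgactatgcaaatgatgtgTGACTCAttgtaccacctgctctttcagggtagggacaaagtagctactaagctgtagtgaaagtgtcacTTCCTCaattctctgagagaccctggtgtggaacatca

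Tlr8 and Tlr13 each held 1 match to the PU.1 core, starting 77 and 83 bases before the RefSeq start site, and Tlr9 held 2. Of the Tlr1 entries, the one beginning at 64933509 held 1 and the one beginning at 64932650 held 0. Tlr2, Tlr3 and Myd88 held 0 in this window. The same letters occurred in 28.3% of 32851 promoters of this length. Tlr9 alone among the 7 members held the AP-1 site, starting 58 bases before the RefSeq start site and found in 7.8% of promoters. These matches describe letters only.

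Genes that handle the receptors or their ligands had lower means for 10 of 11 tested, where 49.2% of all genes had. Past the adjusted test were 0 in either direction, and the median log2 difference was -0.46 against 0.00 over all genes. Lower without overlap were 4 of the 11, where 9.88% of all genes were. Slc15a3, which encodes an endosomal peptide transporter, was at 15.6, 15.1 and 15.5 in wild type compared with 7.21, 10.6 and 11.0 in the labelled knockdown libraries. Its groups did not overlap (log2 difference -0.65, SE 0.16, limma adjusted p = 0.296). Cd180, a surface relative of TLR4 (log2 difference -0.79), and Lgmn, a lysosomal protease that cuts endosomal receptors (-0.73), did not overlap either, and the protease gene Ctsb was at -0.60 with overlap. Chaperones and escorts had lower means for 6 of 6, again with 0 past the adjusted test and a median of -0.26. Of the 6, 2 were lower without overlap. Unc93b1, which carries the nucleic acid receptors to endosomes, was at 237, 212 and 196 against 119, 193 and 207, with overlap. Hsp90b1 (-0.31) and Ap3b1 (-0.21) did not overlap, and Nrros was at -0.40 with overlap.

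The remaining adaptors had lower means for 4 of 4, where 49.2% of all genes had, with 0 past the adjusted test and a median of -0.28. Pik3ap1, an adaptor that links the receptors to PI3 kinase, was at 51.9, 33.7 and 46.4 against 20.3, 34.7 and 30.9, with overlap (log2 difference -0.61, SE 0.23). Ticam2, which bridges TLR4 to TRIF, was at -0.45, the TRIF gene Ticam1 at -0.12 and Tirap, which brings MyD88 to surface receptors, at -0.04, all with overlap.

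Downstream of the adaptors the genes were split. Kinases and ubiquitin ligases had 8 lower and 11 higher means of 19, with 0 past the adjusted test and a median of 0.03. Rescaled to the same sum, 16 had lower means and the median was -0.09, where the median of all genes was itself -0.13. In the deposited values 2 of the 19 (10.5%) were lower without overlap, near the 9.88% of all genes. Higher without overlap was 1, where 12.6% of all genes were. Irak4, the first kinase that MyD88 recruits, was at 19.6, 16.9 and 17.3 in wild type compared with 10.6, 13.5 and 14.97 in the labelled knockdown libraries. Those groups did not overlap (log2 difference -0.44, SE 0.14, limma adjusted p = 0.298). Map3k8, a kinase upstream of ERK, had a higher mean with overlap (0.47, SE 0.17), and Ube2v1 (-0.31) and Ripk1 (-0.20) had lower ones. Among transcription factors 7 of 9 means were lower, where 49.2% of all genes were, with 0 past the adjusted test and a median of -0.07. After rescaling to the same sum 8 of the 9 were lower, and 6 when mitochondrially encoded genes were left out of that rescaling. As deposited, 1 of the 9 (11.1%) was lower without overlap and 1 was higher, where 9.88% and 12.6% of all genes were. Irf5 (-0.56), which acts downstream of MyD88, did not overlap, and Irf7 (-0.51) and Irf8 (-0.33) overlapped. Irf3, which acts downstream of TRIF, had a higher mean without overlap, at 57.9, 57.8 and 76.8 against 50.7, 56.3 and 43.98 in wild type (log2 difference 0.34, SE 0.15). After rescaling to the same sum its groups overlapped (0.20).

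Inhibitors of the pathway had lower means for 10 of 14, where 49.2% of all genes had, with 0 past the adjusted test and a median of -0.09. After rescaling to the same sum 12 had lower means, and 9 when mitochondrially encoded genes were left out of that rescaling. As deposited, 1 of the 14 (7.14%) was lower without overlap and 2 were higher, where 9.88% and 12.6% of all genes were. Sigirr, a receptor-like inhibitor, was higher without overlap at 18.2, 10.6 and 15.97 against 9.74, 10.3 and 8.88 (log2 difference 0.55, SE 0.19, limma adjusted p = 0.302). The closest values, 10.3 and 10.6, were 11 steps in each library. Zc3h12a, an RNase that degrades cytokine transcripts, was at 0.22 without overlap (0.09 and overlapping after rescaling to the same sum), Nlrx1 at -0.13 without overlap and Tnfaip3 at -0.30 with overlap. Target genes that the receptors induce had lower means for 12 of 15 tested, with 0 past the adjusted test and a median of -0.25. Of the 15, 2 (13.3%) were lower without overlap and 1 was higher, where 9.88% and 12.6% of all genes were. Ccl3 (-0.53) and Il6 (-0.43) were lower without overlap, Il1b (-0.67) overlapped, and Nfkbiz, a nuclear regulator of NF-kB, was higher without overlap (0.43; 0.29 and overlapping after rescaling to the same sum). Genes of proteins known as endogenous ligands had lower means for 8 of 9, with 0 past the adjusted test and a median of -0.17. Lower without overlap was 1 of the 9 (11.1%), Hspd1 (-0.17), where 9.88% of all genes were. Fn1 (-0.35), S100a9 (-0.62) and S100a8 (-0.76) overlapped.

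**Figure D5:**
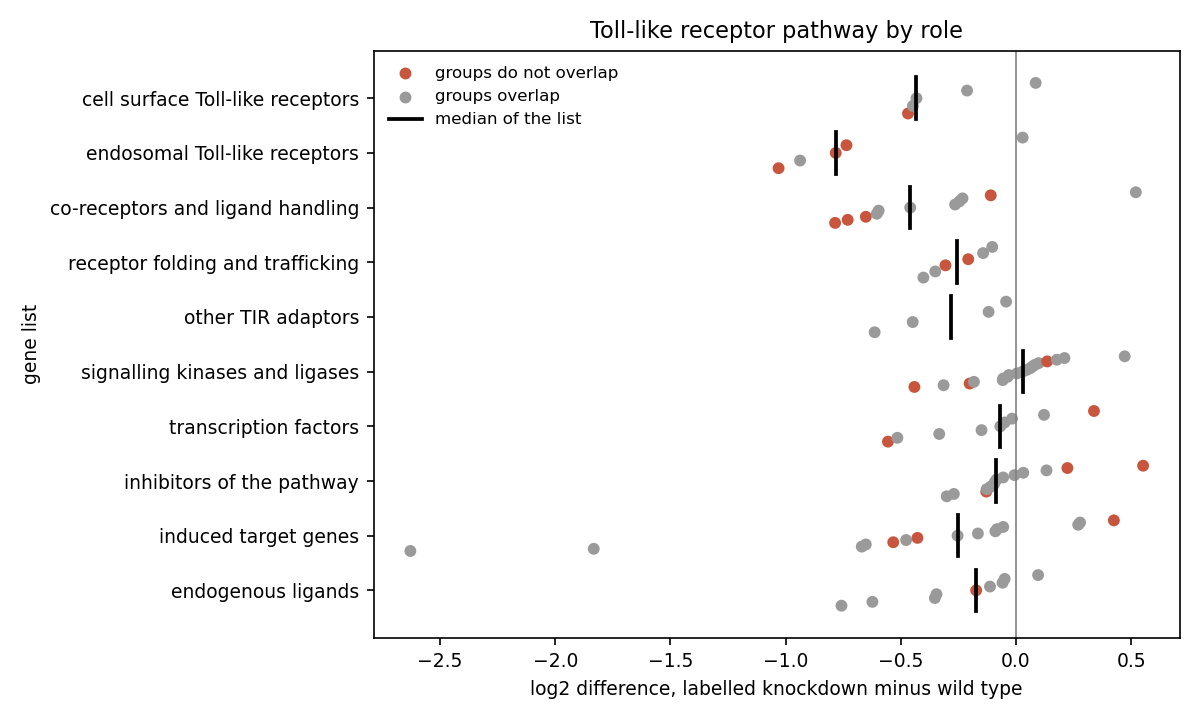
Each point is the log2 difference, labelled knockdown minus wild type, of a tested gene, sorted by its role in the pathway, with red points for genes whose groups do not overlap and a black line at the median of each list. The median is -0.78 for endosomal receptors, -0.43 for surface receptors, -0.46 for co-receptors and ligand handling and 0.03 for kinases and ligases. After rescaling to the same sum the kinases and ligases are at -0.09, where the median of all genes is -0.13. In every list 0 genes passed after adjustment. Of all genes 9.88% were lower and 12.6% higher without overlap.

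The genes most like each member over the 6 libraries, by Pearson correlation of log2(value + 1) among the 10903 genes whose mean reached 5, are given as a description. The libraries fall in 2 groups and share a scale, and with 6 points high correlations are common. Tlr2 and Tlr7 stood among the 3 nearest genes of each other (r = 0.996), and both had Gdi2 in common (r = 0.998 with Tlr2 and 0.992 with Tlr7); Tlr2 also had Zfp119a (r = 0.993). The 3 nearest to Tlr13 were Plcl2 (r = 0.999), Gusb (r = 0.999) and the leukocyte lysosomal membrane gene Laptm5 (r = 0.999). Next to Tlr8 stood Cd5l, a macrophage-secreted protein gene (r = 0.997), Gnai3 (r = 0.996) and Actr2 (r = 0.996). Cd14 was nearest to Smim24 (r = 0.998), the actin-capping gene Capg (r = 0.997) and the ribosomal protein gene Rps9 (r = 0.994). Myd88 was nearest to the ribosomal protein gene Rpl13a (r = 0.996), Bmp2 (r = 0.994) and Trim27 (r = 0.993). Nearest to Tlr3 were Kif16b (r = 0.994), Naa30 (r = 0.993) and Rala (r = 0.991). Tlr4 was nearest to Faf1 (r = 0.992), Prps1 (r = 0.985) and Eif3j1 (r = 0.984). For Tlr1 these were Mtmr4 (r = 0.998), Tubb3 (r = 0.992) and Orai2 (r = 0.990), and for Tlr9 Nsun2 (r = 0.998), Sh3bgrl (r = 0.995) and Slc25a24 (r = 0.994).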

How the data were processed

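Poly(A)-enriched RNA of infarcted mouse myocardium was sequenced in 6 libraries. The authors deposited 1 table of 16205 rows, named as TPM. The deposited values are an adjusted score rather than plain TPM, since the columns sum to between 901563 and 1159657. The adjustment, aligner and quantifier were not given in the sources used here. Per the submitters' processing notes the build was mm10. Depth is unknown.

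For repeated symbols only the row of highest mean was used, which dropped 6. Values were analysed as log2(value + 1), which understates changes of low genes, for 14025 genes whose mean reached 1. Groups were compared with limma 3.58.1 (R 4.3.3), using an intensity trend, no covariate and Benjamini-Hochberg adjustment at 0.05. The step of a library is the median of its values between 0.5 and 1.45. A marker score is the mean log2 value of the list's genes, each centred over the 6 libraries. The fit was tested on simulated data. Named genes are the 10 members, up to 4 other genes per pathway list with the smallest p, and the 3 genes most correlated with each member. Members, lists and rules were chosen with earlier results of these data known. Alternatives changed the pseudocount, filter, scaling, trend, covariate, block and library set. One gene among those nearest to a member is not reported here.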

Additional observations from a re-analysis of the deposited data

How the results depend on the processing

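Under every alternative run, 0 of the 10 members passed the adjusted limma test, and 159 of 161 values of the 9 members other than Tlr3 stayed lower; the exceptions were Tlr1 with the heart muscle score (0.039) or the macrophage score (0.25) as a covariate. Tlr3 turned lower with columns rescaled to the same sum (-0.10), with quantile normalization (-0.00082), with the heart muscle (-0.078) or macrophage score (-0.029), without wild-type replicate 2 (-0.039) and without labelled knockdown replicate 1 (-0.031) or 2 (-0.0094), and was highest without labelled knockdown replicate 3 (0.13). With values divided by each library's step, an alternative chosen after seeing the data, Tlr3 was at -0.11, 8 members were lower without overlap, against 21.1% of all genes, and 22 genes passed over all genes. Members lower without overlap numbered 8 with columns rescaled to the same sum (17.1% of all genes). They numbered 3 when mitochondrially encoded genes were left out of that rescaling (6.89% of all genes). With quantile normalization there were 6, and the share of all genes was not computed. When 1 library was left out there were 4 to 7 (11.8% to 18.4% of all genes), the most without wild-type replicate 2 (18.4%). The macrophage covariate moved the median of the members to -0.18 and Itih5 to -0.22, and 1 gene passed. Leaving out 1 library gave 0 to 13 genes past the threshold, with 2 without wild-type replicate 2 and 13 without labelled knockdown replicate 3, against 0 with all libraries (2081 at an unadjusted p under 0.05), and a median of the members from -0.64 to -0.34. The cause of these changes was not tested. Same-numbered libraries of the 2 groups had correlated deviations of 0.06, 0.06 and 0.14 across genes, not all above 0.1, and wild-type replicate 1 was closer to another number, so the numbers were not taken to pair the libraries. With the replicate number as a block, 0 genes and 0 members passed, 1803 genes were at an unadjusted p under 0.05 and the median of the members was -0.46. Rounding to whole steps limits genes below about 5, among them Tlr9.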
